A study of Mus musculus with 2 samples.

Results

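The 10 genes described here encode enzymes that carry glucose to lactate: Hk2, Gpi1, Pfkp, Aldoa, Tpi1, Gapdh, Pgk1, Eno1, Pkm and Ldha. Their m6A listings were taken from every unique genome position and strand within an exon of 1 of these genes on the same strand, and 332 of the 160430 positions in 17 lists met this rule. Mouse 129 embryonic stem cells (mESCs), either wild type (WT) or knocked out for Mettl3 (KO), gave poly(A) RNA that was read as native molecules by Oxford Nanopore direct RNA sequencing; each condition had 1 library and no replicate. Both Mettl3 alleles of the KO cells lacked exons 5 to 7, where drug resistance cassettes (puromycin and hygromycin) had been put in by genome editing. How many selected colonies the KO library represents is not given in the sources used here. The question of the study was how 10 computational tools differ in the m6A sites they report. There is a list for each library from Epinano, ELIGOS, m6Anet, MINES, Nanom6A, Tombo and xPore, and a single list of WT set against KO, called a comparison list below, from DRUMMER, DiffErr and Nanocompore. By the paper, xPore also requires a control sample and fits all samples in a joint model. Its WT and KO lists are thus not separate calls, and it is not counted among the comparison tools below.

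Glycolysis splits glucose into pyruvate and makes ATP and NADH in the cytosol, and lactate dehydrogenase then regenerates NAD+ from pyruvate. Pluripotent stem cells are known for a high glycolytic flux, and most of these enzymes are encoded by abundant housekeeping mRNAs, several with many processed pseudogenes in the mouse genome. m6A is the methylation of adenosine at its N6 position in mRNA; METTL3 is the catalytic subunit of the methyltransferase that places it, mostly in RRACH 5-mers (R is A or G, H is A, C or T) and often in long last exons near the stop codon. Each RRACH 5-mer names its central A as the candidate site.

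The sequences below show the candidate A in its context, 10 bases on each side, for the position with the most tools in 9 of the genes and for 6 further positions that the results below contrast with them. Where positions of a gene tied for the most tools, the first from the 5′ end was taken as that position; 4 tied in Hk2 (all printed), 5 in Pfkp and 11 in Pgk1. The windows were read from GENCODE M21 transcripts, 5′ to 3′, on build GRCm38, with the RRACH 5-mer in capitals, and the genome reads the same in all but the first Ldha window, which crosses an exon junction. No window of Eno1 is printed, and 17 of its 18 are shared with the copy Eno1b. Some printed windows also occur in transcripts of other genes. These are the windows of Aldoa, Gapdh, Gpi1 and Pgk1 and the coding windows of Tpi1 and Pkm.

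Hk2 3′ UTR, chr6:82727235-82727255, minus strand: gaggagatGGACCtcttggca
Hk2 3′ UTR, chr6:82726704-82726724, minus strand: tgagcagcAGACCttggggct
Hk2 3′ UTR, chr6:82725950-82725970, minus strand: gcttccttGGACTgagctgca
Hk2 3′ UTR, chr6:82725332-82725352, minus strand: ctaggaaaGGACTttttttta
Gpi1 coding, chr7:34202449-34202469, minus strand: ccactaacGGACTgatcagct
Pfkp coding, chr13:6600620-6600640, minus strand: cggaggctGGACTggacaagg
Aldoa coding, chr7:126797499-126797519, minus strand: ggcaccgaGAACAccgaggag
Tpi1 coding, chr6:124811281-124811301, minus strand: gaatttgtGGACAtcatcaat
Tpi1 3′ UTR, chr6:124811222-124811242, minus strand: catagcatGGACTaggttgcc
Gapdh 3′ UTR, chr6:125161992-125162012, minus strand: cccagcaaGGACActgagcaa
Pgk1 coding, chrX:106187269-106187289, plus strand: ctgactttGGACAagctggac
Pkm coding, chr9:59665303-59665323, plus strand: tgccgcctGGACAttgactct
Pkm 3′ UTR, chr9:59679035-59679055, plus strand: ggaatgcaGGACTggaaaccc
Ldha coding, spliced, central base at 46851991 of chromosome 7, plus strand: caggtggtGGACAgtgcctac
Ldha coding, chr7:46855094-46855114, plus strand: aagagcgcAGACAccctctgg

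The lists give positions alone. With no coverage, score or rate beside them, depth is unknown, and a position missing from a list may be unmethylated, uncovered or below a cut-off. Neither the amount of each mRNA nor the number of cells behind it can be told apart from these lists. No test across libraries was possible; intervals are 95% and cover counting error only, and positions of 1 gene are not replicates. All KO and comparison lists rest on the same pair of libraries. The markers chosen for mESCs (Pou5f1, Sox2, Nanog and 7 others) had positions in 10 of 10 genes, with 246 WT and 187 KO positions. Of 6 feeder fibroblast markers, Col1a1 and Thy1 had positions, with 3 in WT and 4 in KO in all, and Col1a2, Col3a1, Postn and Lum were at 0. Of the neural markers, Tubb3 had 3 WT and 4 KO positions and Sox1 and Pax6 none; of the endoderm markers, Sox17 had 12 WT and 0 KO positions and Gata4, Gata6 and Afp none. The replaced exons of Mettl3 held 2 WT and 0 KO positions.

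A large share of the candidate sites in glycolysis mRNAs was listed, both in WT and in KO. By mass spectrometry the paper found m6A virtually absent from the KO mRNA. It took the sites that tools detected in KO to imply many false positives. The representative transcripts of the 10 genes held 355 RRACH 5-mers, and 278 of them (78.3%, interval 73.7 to 82.3%) were in at least 1 WT list, against 24.7% of the 496486 RRACH positions in all coding genes with a listed position. In at least 1 KO list were 245 (69%), against 20.6%. With positions outside the representative transcripts included, 321 positions were in a WT list and 263 in a KO list; 252 were in both, 69 in WT alone (21.5% of the WT positions, against 41% in the series) and 11 in KO alone. The ratio of KO to WT positions was 0.819 (0.693 to 0.967), beside 0.834 (0.827 to 0.84) over the whole series. On the representative transcripts alone it was 0.882 (0.74 to 1.05), an interval that holds 1. Ratio intervals here take the WT and KO counts as separate, although most positions are in both. An interval that holds 1 therefore does not show that the libraries were alike. A tool listed its own WT position again in KO at 246 of the 321 (76.6%, 71.7 to 80.9%), against 55.3% in the series. Nanom6A carried much of this: without it the share was 60.1% (53.6 to 66.2%) for these genes and 50.5% for the series. Read coverage could not be compared between genes, and its part in these shares was not tested.

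**Figure D1:**
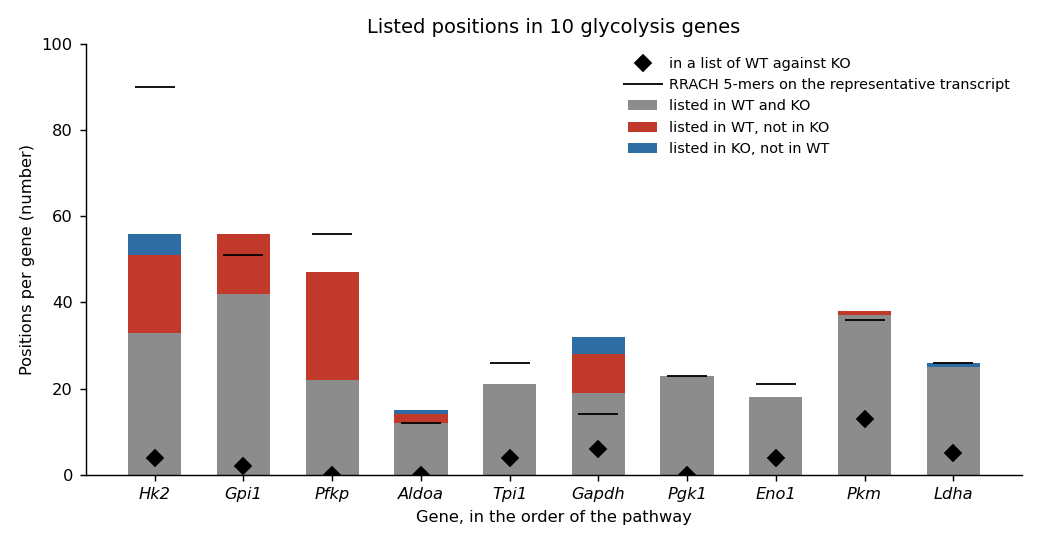
The bars show the number of listed positions in each gene, in pathway order, split into positions in both libraries (grey), in WT and no KO list (red) and in KO and no WT list (blue); diamonds give the positions in a comparison list and horizontal marks the RRACH 5-mers of the representative transcript. Pfkp, Hk2 and Gpi1 have the tallest red segments (25, 18 and 14 positions), while Pgk1, Eno1, Tpi1 and Ldha have none.

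Most of the positions came from Nanom6A and Tombo. Nanom6A listed 230 WT positions, 93 of them as the only tool, and 191 KO positions, every one of which was also in its WT list. It covered 63.4% of the RRACH 5-mers in WT, against 6.38% of those in the series, and 53.8% in KO, against 5.26%. Tombo gave 149 WT and 115 KO positions (33.8% of the RRACH 5-mers in WT against 14.5% in the series, and 28.7% in KO against 13.1%), of which 102 were the same. Both therefore listed a larger share of these genes than of the series in either library. m6Anet gave 64 and 34 (17.7% against 4.58%, and 9.58% against 2.67%). Epinano, which reads base-calling errors, gave 57 and 18 (11.5% against 8.45%, and 3.94% against 2.84%), and ELIGOS, also error-based, 17 and 4 (4.51% against 1.15%, and 1.13% against 0.29%). All of these gave fewer positions in KO than in WT. MINES gave 17 and 10 (3.38% against 2.59%, and 2.25% against 1.82%), and xPore 20 and 16 (5.63% against 1.06%, and 4.51% against 0.469%).

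The KO to WT ratio was lowest for ELIGOS (0.235, 0.0576 to 0.721) and Epinano (0.316, 0.175 to 0.544), followed by m6Anet (0.531, 0.34 to 0.818), MINES (0.588, 0.241 to 1.36), Tombo (0.772, 0.6 to 0.991), xPore (0.8, 0.388 to 1.62) and Nanom6A (0.83, 0.682 to 1.01). The intervals of neighbouring tools in this order overlapped. The share of WT positions that a tool repeated in KO was 83% for Nanom6A (series 65.4%), 68.5% for Tombo (59.7%), 60% for xPore (24.9%), 40.6% for m6Anet (34.4%), 23.5% for ELIGOS (11.5%), 22.8% for Epinano (16.5%) and 11.8% for MINES (40.2%). The intervals for Nanom6A (77.7 to 87.3%), Tombo (60.6 to 75.4%) and xPore (38.7 to 78.1%) lay above the value of the series and that for MINES (3.29 to 34.3%) below it, while those for m6Anet, ELIGOS and Epinano held it.

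**Figure D2:**
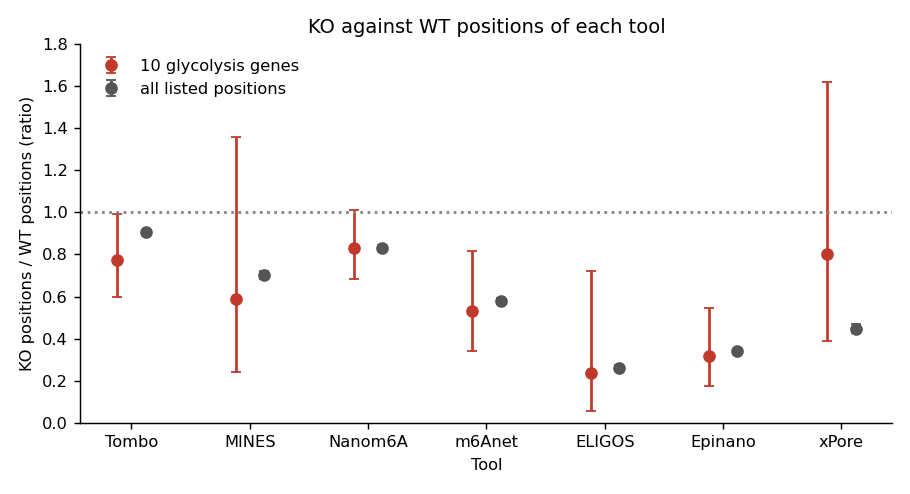
Points show the number of KO positions divided by the number of WT positions for each tool that has both lists, in the 10 genes (red) and over all listed positions (dark grey), with 95% intervals from counting error. The interval of the 10 genes holds the value of the series for each of the 7 tools, and all 14 points lie below 1.

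**Figure D3:**
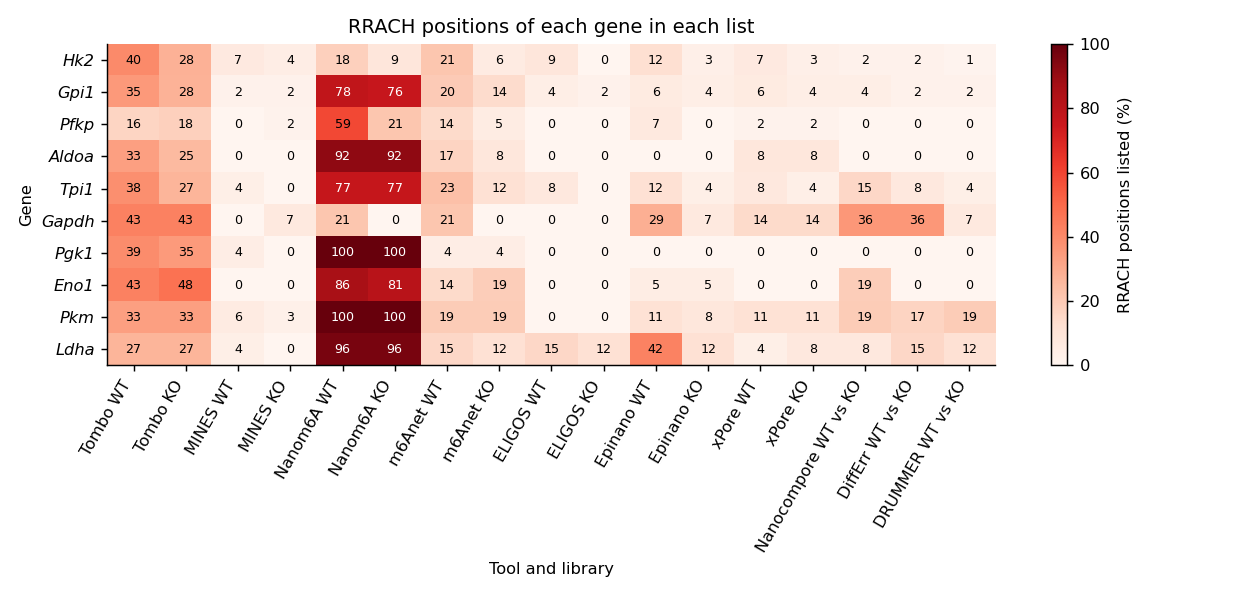
Each cell gives the percent of a gene's RRACH 5-mers that a list holds, with the 10 genes in rows and the 17 lists in columns. Nanom6A fills 100% of Pgk1 and Pkm in both libraries but 21% of Gapdh in WT and 0% in KO, and the comparison columns are empty for Pfkp, Aldoa and Pgk1.

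The comparison lists were shorter and fell on 7 of the 10 genes. They held 38 positions, or 10.7% of the RRACH 5-mers (7.9 to 14.4%), against 0.627% in the series. For 18 of the 38 the same 21 bases occur in another gene, which leaves 20 without an exact copy. Nanocompore gave 26 of the 38 (7.32% against 0.418%), DiffErr 20 (5.63% against 0.348%) and DRUMMER 14 (3.94% against 0.251%). Every one of the 38 was also in a WT list, so that 11.8% of the WT positions were in a comparison list, against 2.45% in the series. Nanocompore alone gave 15, DiffErr alone 4 and DRUMMER alone 2; DiffErr with DRUMMER gave 6, Nanocompore with DiffErr 5, Nanocompore with DRUMMER 1, and all 3 tools gave 5. Pkm had 13, Gapdh 6, Ldha 5, Hk2, Tpi1 and Eno1 4 each and Gpi1 2.

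A comparison listing did not mean that a position was missing from the KO lists. A KO list held 33 of the 38 (86.8%, against 76.5% in the series), and the Nanom6A KO list alone held 29 (76.3%, against 48.5%). A KO list of a tool other than Nanom6A and Tombo held 13 (34.2%, against 37.5%). By sequence, 24 of the 38 (63.2%, 47.3 to 76.6%) began with GGAC or were AGACT, against 83.6% of the comparison positions in the series; of all RRACH 5-mers, 34.9% in these genes and 33% in the series had 1 of these 4 5-mers.

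A larger share of the comparison positions than of the WT positions lay in the 3′ UTR (55.3%, 39.7 to 69.9%, against 27%, 22.1 to 32.5%), as over the series (60.9% against 39.4%). On the representative transcripts there were 11 WT positions in the 5′ UTR (of 23 RRACH 5-mers there), 193 in the coding sequence (of 218) and 75 in the 3′ UTR (of 114, which was 32.1% of the RRACH 5-mers, against 39.9% in the series); in KO the counts were 8, 173 and 65, and in the comparison lists 0, 17 and 21. Of the WT positions, 19.1% were at most 200 nt from the stop codon (series 22.6%), as were 18.4% of the KO positions (21.2%), 36.8% of the comparison positions (23.4 to 52.7%; series 51.4%) and 15.2% of the RRACH 5-mers (12.7%). The last exon held 25 of the 38 comparison positions (65.8%, against 82.5%) and 35.2% of the RRACH 5-mers (48.9% in the series), and 13 lay in internal exons, 7 of them in Pkm.

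A larger share of the RRACH 5-mers of these genes than of the series was listed by many tools. At least 4 of the 10 tools listed 31 positions in WT or the comparison, or 8.73% of the RRACH 5-mers (6.22 to 12.1%) against 1.39% in the series. Without Nanom6A there were 16 such positions (4.51%, 2.79 to 7.2%, against 0.97%), and 20 of the 31 had no exact copy of their 21 bases in another gene. Of the 31, 18 lay in a 3′ UTR (58.1%, 40.8 to 73.6%, against 63.4% in the series), 22 in a last exon (71%, 53.4 to 83.9%, against 82.7%) and 14 within 200 nt of the stop codon (45.2%, against 46.3%). The intervals for the 3′ UTR and the last exon hold the values of the series. A 5-mer that began with GGAC or was AGACT was found at 21 of them (67.7%, 50.1 to 81.4%, against 90%). They fell in Hk2 (9), Pkm (6), Ldha (6), Gapdh (4), Tpi1 (4), Eno1 (1) and Gpi1 (1). No KO list held 5 of them (16.1%, 7.09 to 32.6%, against 26.7% in the series). With at least 3 tools there were 59 positions, of which 7 were in no KO list (11.9%, 5.87 to 22.5%, against 26.3%): 4 in Hk2, 2 in Gapdh and 1 in Pfkp. A single WT tool gave 164 of the 321 WT positions (51.1%, 45.6 to 56.5%, against 65.5% in the series). At least 3 KO lists held 21 of the 263 KO positions (7.98%, 5.28 to 11.9%, against 4.3%).

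**Figure D4:**
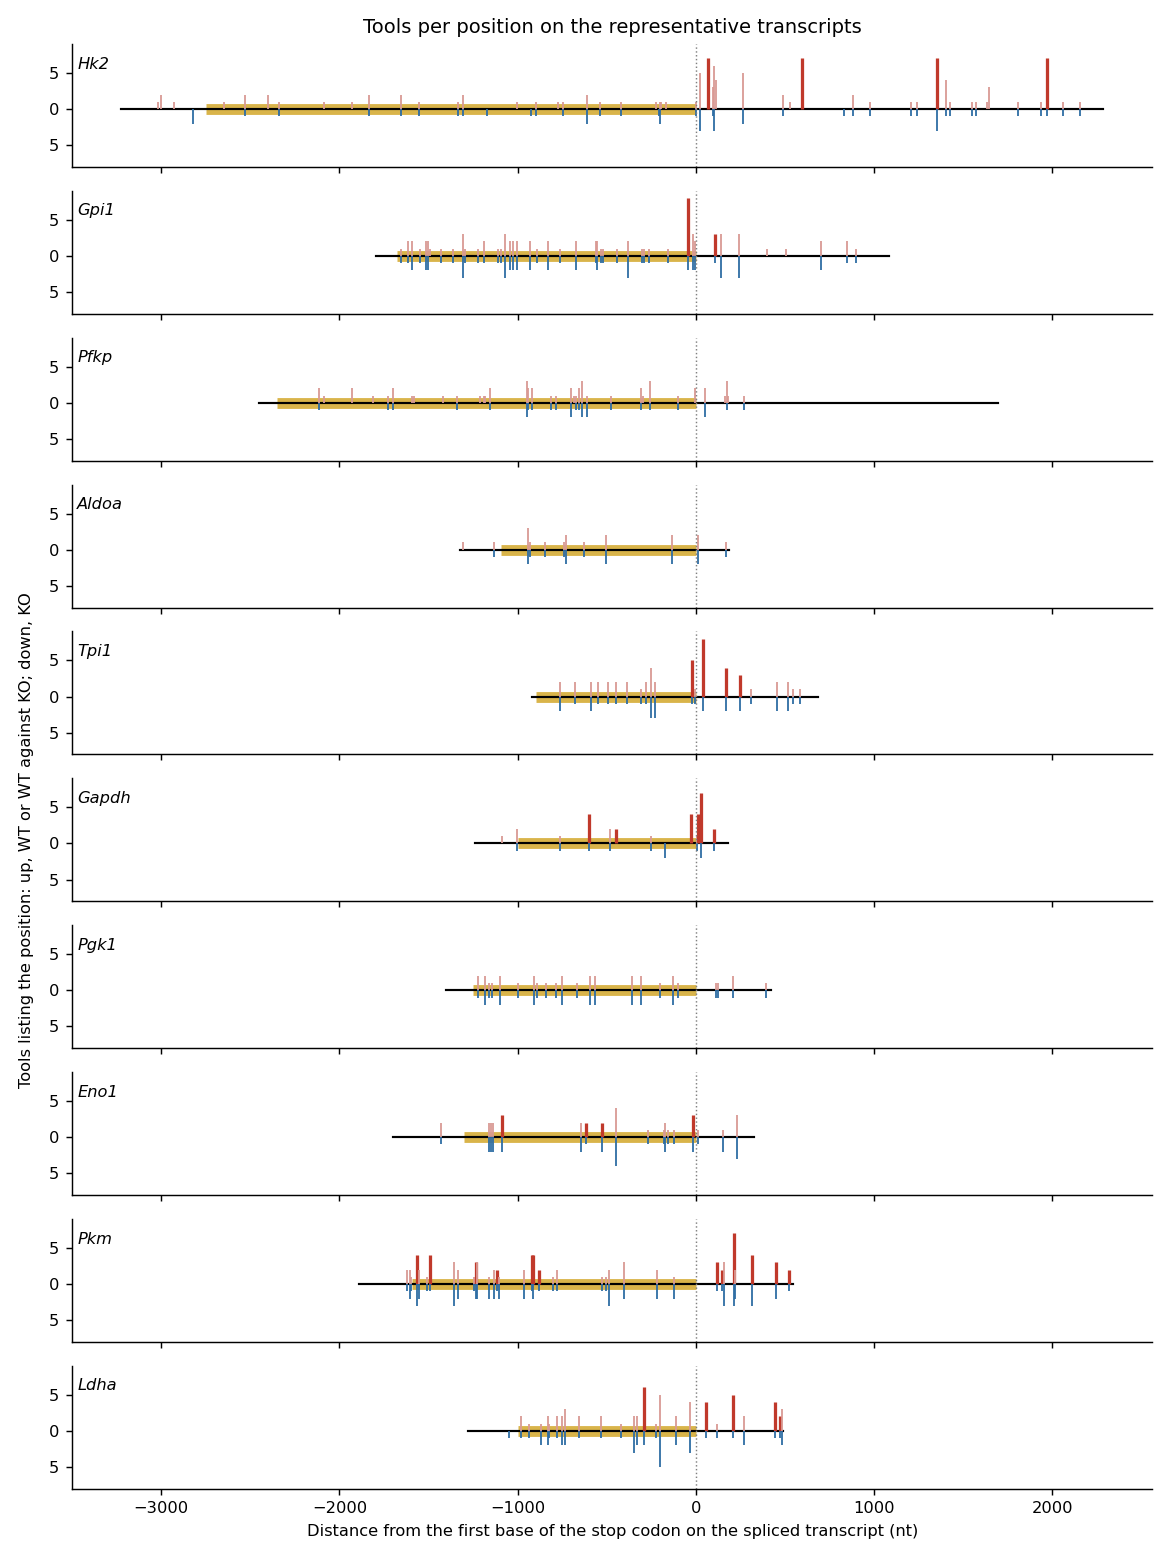
Each panel is a gene, with the coding sequence as a yellow bar and the UTRs as a black line; lines upward give how many tools gave a position in WT or a comparison list (dark red where a comparison list is among them, pale where none is) and blue lines downward the number of tools in KO, against the distance from the first base of the stop codon in nt. The tallest lines, with 7 or 8 tools, stand near the stop codon of Gpi1, Tpi1, Gapdh and Pkm and across the 3′ UTR of Hk2.

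Hk2, hexokinase 2, phosphorylates glucose and so traps it in the cell; the gene (ENSMUSG00000000628) spans 82725025 to 82774454 on chromosome 6, minus strand. Its transcript ENSMUST00000000642 has 18 exons, a 3′ UTR of 2285 nt and 90 RRACH 5-mers, the most of the 10 genes, of which 56.7% were in a WT list and 42.2% in a KO list. It had 51 WT and 38 KO positions, with 33 in both. In its 3′ UTR, ELIGOS listed 8 WT and 0 KO positions, Epinano 10 and 2, m6Anet 13 and 2, Nanom6A 16 and 8, Tombo 15 and 12, xPore 5 and 3, and MINES 3 and 1. Over the 3′ UTRs of the series the KO to WT ratio was 0.17 for ELIGOS, 0.33 for Epinano, 0.44 for m6Anet, 0.755 for Nanom6A, 0.821 for Tombo, 0.353 for xPore and 0.589 for MINES. The interval of the Hk2 ratio held the series value for each of these tools. In the coding sequence, m6Anet listed 6 and 3, Tombo 18 and 12, and Nanom6A 0 in either library, although 45 RRACH 5-mers lie there.

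The 4 comparison positions of Hk2 were all in its 3′ UTR, and they are the Hk2 windows printed above. The GGACC at 82727245, 67 nt after the first base of the stop codon, was in the WT lists of Tombo, Nanom6A, m6Anet, ELIGOS, Epinano and xPore and in the DiffErr list, and in no KO list. The AGACC at 82726714, 598 nt after that base, was in the same 6 WT lists, in the Nanocompore list and in no KO list. The GGACT at 82725960 (1352 nt) had the same 6 WT tools and Nanocompore but was also in the KO lists of Tombo, Nanom6A and m6Anet. The GGACT at 82725342 (1970 nt) was listed in WT by all of these except xPore and by DiffErr and DRUMMER, and xPore alone listed it in KO. All 4 had 7 tools in WT or the comparison, and they differed in the KO lists.

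Further 3′ UTR positions of Hk2 had many WT tools and no comparison listing. Near the stop codon, the AGACT at 82727207 (105 nt) had 6 WT tools and 3 KO tools (Tombo, Epinano and xPore). The GGACT at 82727201 (111 nt), within the same stretch of 21 bases, had 4 WT tools and no KO tool. The GGACT at 82727291 (21 nt) had 5 WT tools and was in the KO lists of Tombo, Nanom6A and m6Anet, the last of which did not list it in WT. The GGACA at 82727046 (266 nt) had 5 WT tools and 2 KO tools, Tombo and MINES. None of the 56 positions of Hk2 had its 21 bases in a transcript of another gene.

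**Figure D5:**
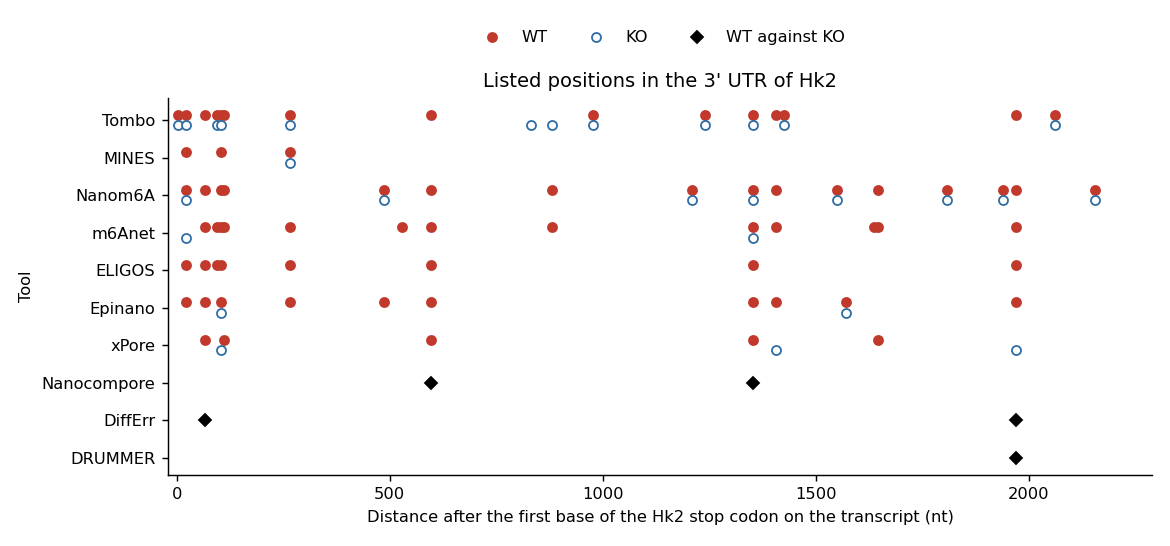
Rows are the 10 tools and the horizontal axis is the distance after the first base of the Hk2 stop codon in nt; filled red circles are WT listings, open blue circles KO listings and black diamonds comparison listings. The ELIGOS row has 8 red and no blue circles, and the columns at 67 and 598 nt hold 6 red circles each and no blue one.

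Gpi1, glucose-6-phosphate isomerase, turns glucose 6-phosphate into fructose 6-phosphate; the gene (ENSMUSG00000036427) spans 34201330 to 34230336 on chromosome 7, minus strand. Of its 51 RRACH 5-mers on ENSMUST00000038027, 88.2% were in a WT list and 82.4% in a KO list, and 37 of 37 in the coding sequence had a WT listing. A GGACT in the last coding stretch, at 34202459 and 43 nt before the stop codon, had 8 tools: Tombo, Nanom6A, m6Anet, Epinano and xPore in WT and all 3 comparison tools. Nanom6A and m6Anet listed it in KO too. The other comparison position, the GGACT at 34202307 in the 3′ UTR (109 nt), was given by Nanocompore, with Nanom6A and m6Anet in WT and Nanom6A in KO.

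Where Gpi1 differed between the libraries was mostly outside its coding transcript. There were 56 WT and 42 KO positions, and 14 of the WT positions were in no KO list. Of these, 11 lay in the stretch from 34208684 to 34210149, which belongs to the retained-intron transcript ENSMUST00000135243 and not to the representative one; each had 1 or 2 WT tools, among them Tombo, Epinano and m6Anet, and none had a KO or comparison listing. At 5 positions, 3 tools listed the site in KO: 34227152 and 34220640 in the coding sequence (1307 and 1068 nt before the stop codon) and 34202172 in the 3′ UTR (244 nt) with Tombo, Nanom6A and m6Anet, 34204130 (378 nt before) with Tombo, MINES and Nanom6A, and 34202275 (141 nt) with Nanom6A, m6Anet and xPore. All but 34204130, where MINES gave KO alone, had the same tools in WT. The 21 bases of 26 Gpi1 positions, the one at 34202459 included, occur in another gene, mainly the retrocopy Gm1840, which had no listed position itself.

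Pfkp, the platelet isoform of phosphofructokinase, catalyses the committed step of the pathway; the gene (ENSMUSG00000021196) spans 6579768 to 6648777 on chromosome 13, minus strand. Its ratio of KO to WT positions was the lowest of the 10 genes, with 47 positions in a WT list and 22 in a KO list (0.468, 0.269 to 0.792), beside 0.745 (0.476 to 1.16) for Hk2 and 0.75 (0.49 to 1.14) for Gpi1, whose intervals overlap it, and 25 WT positions were in no KO list. Nanom6A gave 28 WT and 10 KO positions in the coding sequence, and 5 and 2 in the 3′ UTR. In the coding sequence m6Anet gave 7 and 3, Epinano 3 and 0, xPore 1 and 1 and Tombo 8 and 9. Over all Pfkp positions Tombo gave 15 and 10. No comparison tool listed a position, at 56 RRACH 5-mers.

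No position of Pfkp had more than 3 tools, and 5 had 3. The first of them from the 5′ end, the GGACT at 6600630 (948 nt before the stop codon), was given by Tombo, Nanom6A and m6Anet in WT, with Tombo and m6Anet also in KO. Tombo, Nanom6A and Epinano gave 6588620 and 6584623 in the coding sequence (639 and 256 nt before the stop codon) and 6581288 in the 3′ UTR (174 nt), all with Tombo in KO and the first with Nanom6A as well. In the 3′ UTR of 1692 nt, with 24 RRACH 5-mers, 5 were listed, none further than 271 nt from the first base of the stop codon. As in Gpi1, a run of 11 positions was listed in WT and not in KO outside the representative transcript ENSMUST00000138703. Of these, 10 lay between 6589224 and 6591400 in the retained-intron transcript ENSMUST00000151894. The fifth position with 3 tools, the GGACA at 6589485, was among them and was given by Tombo, MINES and Epinano. None of the 47 positions of Pfkp has its 21 bases in another gene's transcript.

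Aldoa, fructose-bisphosphate aldolase A, splits the hexose into a pair of triose phosphates; the gene (ENSMUSG00000030695) spans 126795234 to 126800751 on chromosome 7, minus strand. All 12 RRACH 5-mers of ENSMUST00000032934 had a WT listing and 11 a KO listing, and no comparison tool listed any. Nanom6A accounted for 11 of the 12 in each library. The position with the most tools was the GAACA at 126797509 (941 nt before the stop codon), listed by Tombo, Nanom6A and m6Anet in WT and by Tombo and Nanom6A in KO. ELIGOS, Epinano and MINES listed no Aldoa position in either library.

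Tpi1, triosephosphate isomerase, interconverts those trioses; the gene (ENSMUSG00000023456) spans 124810586 to 124814296 on chromosome 6, minus strand. All 21 positions were listed in both libraries, and Nanom6A listed 20 of them in each. Without Nanom6A, WT had 17 and KO 10, and 10 of the 17 were repeated by their own tool (58.8%, 36 to 78.4%). Its leading position, with 8 tools, was the GGACT at 124811232, 39 nt after the first base of the stop codon: Tombo, Nanom6A, m6Anet, ELIGOS, Epinano and xPore listed it in WT, Nanocompore and DiffErr in the comparison, and Tombo and Nanom6A in KO. The GGACA at 124811291, 20 nt before the stop codon, was in all 3 comparison lists but had just Tombo and Nanom6A in WT, and Nanom6A in KO. Nanocompore also gave the GGACC at 124811101 (170 nt) and the GAACT at 124811021 (250 nt). A pair of neighbouring coding positions were in 3 KO lists each, those of Tombo, Nanom6A and m6Anet: the GAACC at 124811927 (250 nt before the stop codon) and the GGACT at 124811908 (231 nt before), and m6Anet listed neither in WT.

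Gapdh, glyceraldehyde-3-phosphate dehydrogenase, makes the NADH of the pathway; the gene (ENSMUSG00000057666) spans 125161715 to 125166467 on chromosome 6, minus strand. Of the 14 RRACH 5-mers of ENSMUST00000118875, 78.6% had a WT listing and 57.1% a KO listing, and 6 (all listed in WT) were in a comparison list. Nanom6A listed 7 WT positions and 0 in KO, beside 23 and 23 in Pgk1 and 36 and 36 in Pkm; its share of the RRACH 5-mers in WT was 21.4%, beside 17.8% in Hk2. The GGACA at 125162002, 32 nt after the first base of the stop codon, had 7 tools: Tombo, Nanom6A, m6Anet and xPore in WT and all 3 comparison tools, with Tombo and xPore in KO. Both GGACC 5-mers beside the stop codon, at 125162063 (29 nt before) and 125162021 (13 nt after), were listed by Nanom6A and Epinano in WT and by Nanocompore and DiffErr, and by no tool in KO. The GAACC at 125162961 (599 nt before) was given by the same comparison tools, the AGACT at 125162675 (447 nt before) by DiffErr and the AGACC at 125161929 (105 nt after) by Nanocompore.

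Gapdh shares its sequence with many other genes. The 21 bases of 12 of its 32 positions, among them all 6 comparison positions, occur in transcripts of 234 other genes, mostly processed pseudogenes, and 21 of these had 105 listed positions. In the 59 that share at least 4 windows with Gapdh, Nanom6A listed 40 WT and 20 KO positions, Tombo 40 and 22, Epinano 33 and 6, and the comparison tools, ELIGOS and xPore none. The part that reads placed at these copies had in the Gapdh counts was not tested. A further 19 positions of Gapdh lay outside the representative transcript, 18 of them in the single-exon retained-intron transcript ENSMUST00000192506 (15 in WT, 14 in KO); unlike the runs in Gpi1 and Pfkp, these were listed in both libraries at similar numbers.

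Pgk1, phosphoglycerate kinase, catalyses the first ATP-forming step; the gene (ENSMUSG00000062070) spans 106187100 to 106203699 on chromosome X, plus strand. All 23 RRACH 5-mers of ENSMUST00000081593 were listed in WT and again in KO, and no comparison tool listed any. Nanom6A listed all 23 in each library, Tombo 9 and 8, m6Anet 1 and 1, and MINES 1 and 0, while ELIGOS, Epinano and xPore listed none. No position had more than 2 tools, the first being the GGACA at 106187279 (1223 nt before the stop codon). The copies Pgk1-rs7 and Gm5537 carry the 21 bases of 19 of the positions and had no listed position.

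Eno1, enolase 1, forms phosphoenolpyruvate; the gene (ENSMUSG00000063524) spans 150236721 to 150248879 on chromosome 4, plus strand. All 18 listed positions, of 21 RRACH 5-mers on ENSMUST00000080926, were in both libraries. Without Nanom6A, WT had 10 and KO 12, and each of the 10 was repeated by its own tool. The GAACT at 150246759 (446 nt before the stop codon) had Tombo, Nanom6A, m6Anet and Epinano in WT and the same 4 in KO, and the GAACT at 150248787 (234 nt after) had the first 3 of these in both. Nanocompore alone gave the 4 comparison positions: 150242154, 150246587, 150246681 and 150248539, at 1089, 618, 524 and 14 nt before the stop codon.

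Eno1 has a copy, Eno1b on chromosome 18, in which the same letters were listed again. The 21 bases of 17 of the 18 Eno1 positions occur in Eno1b, and all 17 had listings there in both libraries. At 16 of the 17, exactly the same tools listed the Eno1 and the Eno1b position in WT, and at 10 of 17 in KO. Within these 17 windows, Tombo gave 8 WT and 9 KO positions at both copies, and m6Anet 3 and 4 at both. Nanom6A gave all 17 in WT at both, but in KO 17 at Eno1 and 13 at Eno1b. The 4 comparison windows of Eno1 were not in a comparison list at Eno1b. Whether the reads behind these listings came from 1 gene or both was not tested.

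Pkm, pyruvate kinase, makes pyruvate and the last ATP of the pathway; the gene (ENSMUSG00000032294) spans 59656368 to 59679375 on chromosome 9, plus strand. All 36 RRACH 5-mers of ENSMUST00000034834 were listed in WT and all 36 in KO, by Nanom6A in each case. Pkm also had the most comparison positions, 13, and every one of these was in the KO list of Nanom6A. The GGACT at 59679045 in the 3′ UTR (213 nt) had 7 tools: Tombo, MINES, Nanom6A and m6Anet in WT and all 3 comparison tools, with Tombo, Nanom6A and m6Anet in KO. The GGACA at 59665313 in exon 2 (1493 nt before the stop codon) was also in all 3 comparison lists, though Nanom6A was the one tool that listed it in WT or KO.

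The other 11 comparison positions of Pkm lay on both sides of the stop codon. In the coding sequence, Nanocompore gave the GGACT 5-mers at 59665240, 59668663 and 59669013 (1566, 1233 and 1115 nt before the stop codon). In exon 6, DiffErr and DRUMMER gave the GGACA at 59670575, Nanocompore and DRUMMER the GGACC at 59670584, and DiffErr the GGACA at 59670614 (920, 911 and 881 nt before). In the 3′ UTR, DiffErr and DRUMMER gave the GGACA at 59678952 (120 nt), Nanocompore the AAACA at 59678979 (147 nt), DRUMMER the AGACA 5-mers at 59679145 and 59679282 (313 and 450 nt) and DiffErr the AAACA at 59679356 (524 nt). Most of these had 1 or 2 WT tools, and the same tools listed the position in KO except at 59665240, 59670575 and 59670584. At 6 Pkm positions at least 3 KO lists agreed: 59665240, 59665946, 59672039, 59678992, 59679045 and 59679145.

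Pkm is spliced into an isoform with either of a pair of alternative exons, of which exon 9 of ENSMUST00000034834 (59675568 to 59675734) holds 1 RRACH 5-mer and exon 9 of ENSMUST00000163694 (59675029 to 59675195) 1 other. The first, the GAACT at 59675618, was listed in WT by Nanom6A, m6Anet and Epinano and in KO by Nanom6A and Epinano. It also lies in an exon of Gm49759, an overlapping gene on the same strand. The Epinano KO list names the Gm49759 transcript at this position and its WT list names both genes, while Nanom6A in both libraries and m6Anet in WT name Pkm. The second was in no list. The 21 bases of 25 of the 38 Pkm positions occur in another gene, for 3 of them in the overlapping Gm49759 alone and for 22 at another locus, and 6 of the 13 comparison positions are among the latter.

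Ldha, lactate dehydrogenase A, reduces pyruvate to lactate; the gene (ENSMUSG00000063229) spans 46841475 to 46855627 on chromosome 7, plus strand. Of the 26 RRACH 5-mers of ENSMUST00000005051, 25 were listed in WT and 26 in KO. Epinano gave 7 WT and 1 KO positions in its coding sequence and 4 and 1 in its 3′ UTR, and Nanom6A 18 and 18, and 7 and 7. The GGACA at 46851991 (290 nt before the stop codon) led with 6 tools: Tombo, MINES, Nanom6A and Epinano in WT and DiffErr and DRUMMER in the comparison, with Tombo and Nanom6A in KO. The other comparison positions lay in the 3′ UTR: the AGACC at 46855199 (60 nt) and the GAACC at 46855584 (445 nt) with DiffErr and DRUMMER, the AGACA at 46855347 (208 nt) with Nanocompore and DiffErr, and the AAACC at 46855614 (475 nt) with Nanocompore. None of the 5 has its 21 bases in another gene.

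Ldha also held the position that the most tools listed in KO among these genes. The GAACC at 46854069 (200 nt before the stop codon) was listed by Tombo, Nanom6A, ELIGOS, Epinano and xPore in WT and by the same 5 in KO, and by no comparison tool; its 21 bases occur in 6 other genes. The AGACA at 46855104 (35 nt before), whose 21 bases occur in no other gene, had 4 WT tools and Tombo, Nanom6A and ELIGOS in KO. ELIGOS listed 3 KO positions in Ldha and 1 in the other 9 genes together, in Gpi1. The GAACT at 46851935 (346 nt before) was in the KO lists of Nanom6A, m6Anet and xPore.

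The letters of the 5-mer went with which tool listed a position. Tombo listed 27 of 34 AGACA 5-mers in WT (79.4%, against 27.8% in the series) and 2 of 25 GAACT (8%, against 3.94%). m6Anet listed 17 of 25 GAACT (68%, against 15.4%) and 19 of 36 GGACT (52.8%, against 13.4%), but 1 of 34 AGACA (2.94%, against 1.45%) and 0 of 35 AAACA (0.0193% in the series). The Nanom6A share ran from 40.9% for AAACC (series 4.49%) to 77.8% for GGACT (11.4%). A comparison list held 10 of 36 GGACT (27.8%, against 2.86%), 5 of 24 GGACC (20.8%, against 0.862%), 7 of 39 GGACA (17.9%, against 1.29%) and 0 of 30 GAACA (0.0945% in the series).

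A smaller share of KO positions lacked a WT listing than in the series. There were 11 of 263 (4.18%, 2.35 to 7.33%, against 29.2%): 5 in Hk2, 4 in Gapdh and 1 each in Aldoa and Ldha. Tombo and MINES both gave 2 of them, the GGACC at 125162314 in Gapdh (170 nt before the stop codon) and the GGACA at 82774052 in the 5′ UTR of Hk2, and the other 9 had 1 tool. The other pathway genes examined, 25 isoenzymes, regulators and transporters, had 415 positions in 19 genes, 376 in WT, 301 in KO and 40 in a comparison list. The comparison positions fell in 8 of them. The glucose transporter Slc2a1 had 11 and Slc2a3 8, with up to 10 and 9 tools at a position, and the lactate transporters Slc16a3 and Slc16a1 had 6 and 4. Pgam1, the mutase that acts between Pgk1 and Eno1, had 6, with 22 positions in WT and 22 in KO. The isoform Hk1 had 3 and Pfkl and Pdha1 1 each. Isoenzymes typical of other tissues, namely Hk3, Gapdhs, Pgk2 and Pklr, had no listed position, and neither had the regulators Pfkfb2 and Pfkfb4.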

How the data were processed

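Each deposited list is a BED-like table of genome positions on GRCm38 (mm10), per the labels, with a strand and a transcript identifier (a symbol for Nanom6A); the other value, a transcript position, was not used. The authors basecalled and aligned the reads to GENCODE transcripts, ran each tool and converted positions to the genome. Cut-offs per list are not given with the lists, and read numbers per position were not analysed here.

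A position was a unique chromosome, base and strand. Exons and stop codons came from GENCODE M21, while the authors used an earlier release of the same build. Transcripts were chosen as APPRIS principal, then CCDS, then longest coding sequence. Genome 5-mers came from the RefSeq GRCm38 assembly; 331 of the 332 positions were RRACH on the genome. The exception, in Pfkp, lies at an exon end and reads RRACH on the spliced transcript.

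Shares have Wilson intervals and ratios an interval from the exact binomial interval of KO among both lists. The ratio interval does not use the pairing of positions that both libraries share. No p-value was computed. Background shares were over RRACH positions in representative transcripts of 10178 coding genes with a listed position. Named sites were the position with most tools per gene, every comparison position and every position in at least 3 KO lists; the other positions with at least 3 or 4 tools or no KO listing were chosen after their values were seen. The members, marker lists and pathway list were chosen with earlier results of these data known. A gene of the pathway list is not reported here. Placement was tested on planted positions and the intervals on simulated independent draws. Those draws do not cover positions shared between the libraries or grouped in genes. Python 3.11.15, numpy 2.4.6, scipy 1.17.1, pysam 0.24.0 and matplotlib 3.10.9 were used.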

Additional observations from a re-analysis of the deposited data

How the results depend on the processing

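Alternatives were run on 7 results: the WT, KO and comparison counts, the KO to WT ratio, the share repeated in KO by the same tool, the share at most 200 nt from the stop codon and the count with at least 4 tools. Of 70 alternative values, 50 stayed within 1.5 times the count or inside the interval and 20 moved further. Some could not move. Tombo and Nanom6A have no comparison list, so dropping them leaves the comparison count as it was. The share near the stop codon is always taken on the representative transcripts. Joining positions within 5 nt, keeping lines that name the gene, dropping Tombo, keeping RRACH on the genome and dropping Gapdh moved none. Counting every line gave 661 WT and 447 KO listings. Windows of 100 and 400 nt held 7.89% and 31.9% of the WT positions. At least 3 tools listed 59 positions and at least 5 listed 15. Settings added after seeing the data moved more. Without Nanom6A there were 163 KO positions, 60.1% were repeated and 16 had at least 4 tools. Without Nanom6A and Tombo there were 132 WT and 76 KO positions, a ratio of 0.576, 40.2% repeated and 12 with at least 4 tools. On the representative transcripts alone 83.5% were repeated and the interval of the ratio (0.74 to 1.05), which ignores the pairing of positions, held 1. Without positions whose 21 bases occur in another gene there were 197 WT, 144 KO and 20 comparison positions, 65% repeated and 20 with at least 4 tools. No paired analysis of libraries was possible because there was 1 library per condition, and positions were not tested as pairs. Read depth per position is unknown, so a missing listing sets no limit on methylation.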
